A study of Mus musculus with 15 samples.

Results

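Irx1, Irx2, Irx3, Irx5, Pou3f4, Foxp1, Foxp2 and Foxp4 are transcription factor genes connected with the glucagon-producing alpha cells of the pancreatic islet, and their signals were followed in 15 microarrays of mouse islet cells. They were chosen by symbol, and each of the 8 had exactly 1 transcript cluster annotated to it alone. A transcript cluster is the set of probes that reports on 1 gene on the Affymetrix Mouse Gene 1.0 ST array. The 8 genes are part of 19938 genes that could be compared in the same way. By their titles 5 arrays held beta cells, which make insulin, 5 held alpha cells, and 5 held cells deficient in Pdx1, a homeodomain transcription factor that beta cells need to keep their identity. The beta group carries the genotype label glucagon-Cre; RosaYFP and the alpha group RIP-CreER; Pdx1fl/+, RosaYFP. A glucagon promoter is normally active in alpha cells and an insulin promoter (RIP) in beta cells, so these labels run opposite to the titles, and the series' design text pairs them in the same order. Both control groups came from mice 2 months old and were sorted by their YFP reporter. The third group is labelled Pdx1-deficient (PKO) and was taken 5 days after TAM (tamoxifen); the sources used here give neither its driver, nor the age of its mice, nor the deleted part of the allele. All 3 groups had a mixed background of B6 and BALB/C. The question was whether these regulators, linked to alpha cells, took different levels in beta cells, alpha cells and cells that had lost Pdx1. The labels do not tie the 5 arrays of a group to different mice; p-values therefore describe how far these samples differ from each other, a spread that can be technical. In bulk RNA, fewer cells of a type and less RNA per cell cannot be told apart.

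The Iroquois genes (Irx) encode homeodomain proteins of the TALE class and lie in the genome in clusters of neighbours that are often expressed together. Irx1 and Irx2 are known from developing and adult islets as genes of the glucagon-producing lineage. Pou3f4, also called Brn4, encodes a POU-domain factor that binds the glucagon gene promoter and is among the early markers of alpha cells. Foxp1, Foxp2 and Foxp4 encode forkhead repressors that pair with each other and work with corepressors, among them NuRD and, for some of these factors, CtBP. Together the Foxp factors are required for postnatal expansion of alpha cells and for glucagon production. Pdx1 and the Irx factors belong to the homeodomain group, many of which recognise DNA with a TAAT core.

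The sequences of 2 promoter windows are given because Irx2 was the 1 gene of the 8 that passed the test and because a window of Foxp1 held the most TAAT cores among the windows read. Each window is the 250 bases before a gene start in RefSeq (GRCm38.p6), written 5′ to 3′ on the gene's strand, with matches to TAAT, to its reverse complement ATTA and to TAATTA in capitals. The Irx2 window lies at chr13:72628570-72628819 on the plus strand, and the Foxp1 window, before the second of its 3 listed starts, at chr6:99266516-99266765 on the minus strand.
Irx2: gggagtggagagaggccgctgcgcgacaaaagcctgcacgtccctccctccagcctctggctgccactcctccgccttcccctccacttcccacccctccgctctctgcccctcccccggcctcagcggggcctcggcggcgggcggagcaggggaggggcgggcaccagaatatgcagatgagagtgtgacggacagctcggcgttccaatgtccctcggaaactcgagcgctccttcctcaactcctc
Foxp1: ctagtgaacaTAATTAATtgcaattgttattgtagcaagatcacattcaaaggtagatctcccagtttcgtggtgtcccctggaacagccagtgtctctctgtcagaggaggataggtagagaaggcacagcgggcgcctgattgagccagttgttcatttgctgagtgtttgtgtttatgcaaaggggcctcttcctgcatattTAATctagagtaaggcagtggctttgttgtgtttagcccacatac
The Irx2 window had a GC content of 68.4%, against a median of 52.4% over 32851 windows of the same length, and held none of the motifs searched. The Foxp1 window had a GC content of 45.2% and held 4 matches to TAAT, counting overlapping ones on both strands, and 1 to TAATTA. Of all windows 54.9% held TAAT and 4.84% held TAATTA. The other motifs, searched on both strands, were the Iroquois motif ACANNTGT (in 6.31% of all windows), the forkhead motif TGTTTAC (3.17%) and the octamer ATGCAAAT bound by POU factors (1.6%). RefSeq windows were matched for 5 of the 8 genes, Irx2, Irx3, Pou3f4, Foxp1 and Foxp4, with 7 starts. The Pou3f4 and Foxp4 windows each held 1 TAAT core and the Irx3 window held none. Before the first Foxp1 start the window held 0 TAAT cores and 1 match to ACANNTGT. Before the third it held 1 TAAT core. A match here is a description of the letters, not a binding site.

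Some arrays stood apart in genes other than the 8. Pdx1 had a log2 signal of 9.12 in the array labelled Pdx1-deficient replicate 1, inside the beta range of 8.85 to 9.33, while the other arrays of that group read 6.53 to 7.83. In the array labelled alpha replicate 2, Ndst4, a heparan sulfate sulfotransferase gene typical of alpha cells that was chosen here after its values were seen, read 6.50, where the other alpha arrays read 8.27 to 8.79 and beta arrays 4.24 to 4.84. Some other values of that array lay within its group: the 4 alpha markers averaged 10.56 in it, 10.40 to 10.84 in the other alpha arrays and 9.87 to 10.14 in beta arrays, and Pdx1 read 7.98 in it and 7.27 to 8.21 in the others. Slc38a5, an amino acid transporter gene of alpha cells, had its highest value of the 15 arrays there, at 8.09. Both arrays were kept, and where a call reported here changes without them, its value without them is given beside it. They were singled out from these same data. Alpha replicate 2 was also the lowest alpha array for Irx1 (5.61) and Irx2 (6.93), so smaller p-values without it are a description. The hormone genes did not separate the sorted groups sharply: glucagon (Gcg) read 12.15 to 12.51 in beta and 12.49 to 12.87 in alpha arrays, and insulin (Ins2) 11.77 to 11.98 and 11.86 to 12.09. The mean of 7 beta markers, Ins2 among them, ran with the titles, at 9.61 to 9.94 in beta and 8.14 to 8.79 in alpha arrays. Of the 7, 5 fell and 0 rose in alpha arrays in limma, where 3.15% of all genes fell and 0.893% rose. Acinar markers averaged 10.77 in alpha replicate 5 and 6.01 to 6.97 in all other arrays.

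A rough background was read in each array from 1190 olfactory and vomeronasal receptor genes, which islet cells are not expected to use. Their 95th percentile lay at 5.58 to 5.71 in beta, 5.74 to 6.04 in alpha and 5.70 to 6.02 in Pdx1-deficient arrays. Irx2, Foxp1 and Foxp4 were above it in all 15 arrays. Irx1 was above it in 12 arrays, Foxp2 in 5 and Pou3f4 in 1, while Irx3 and Irx5 were above it in none. Signals of the last 4 of these genes are therefore close to what unused probes give on these arrays, and a fold change between groups can understate theirs. Probe sets respond differently, so levels are compared between arrays for 1 gene and never between genes.

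**Figure D1:**
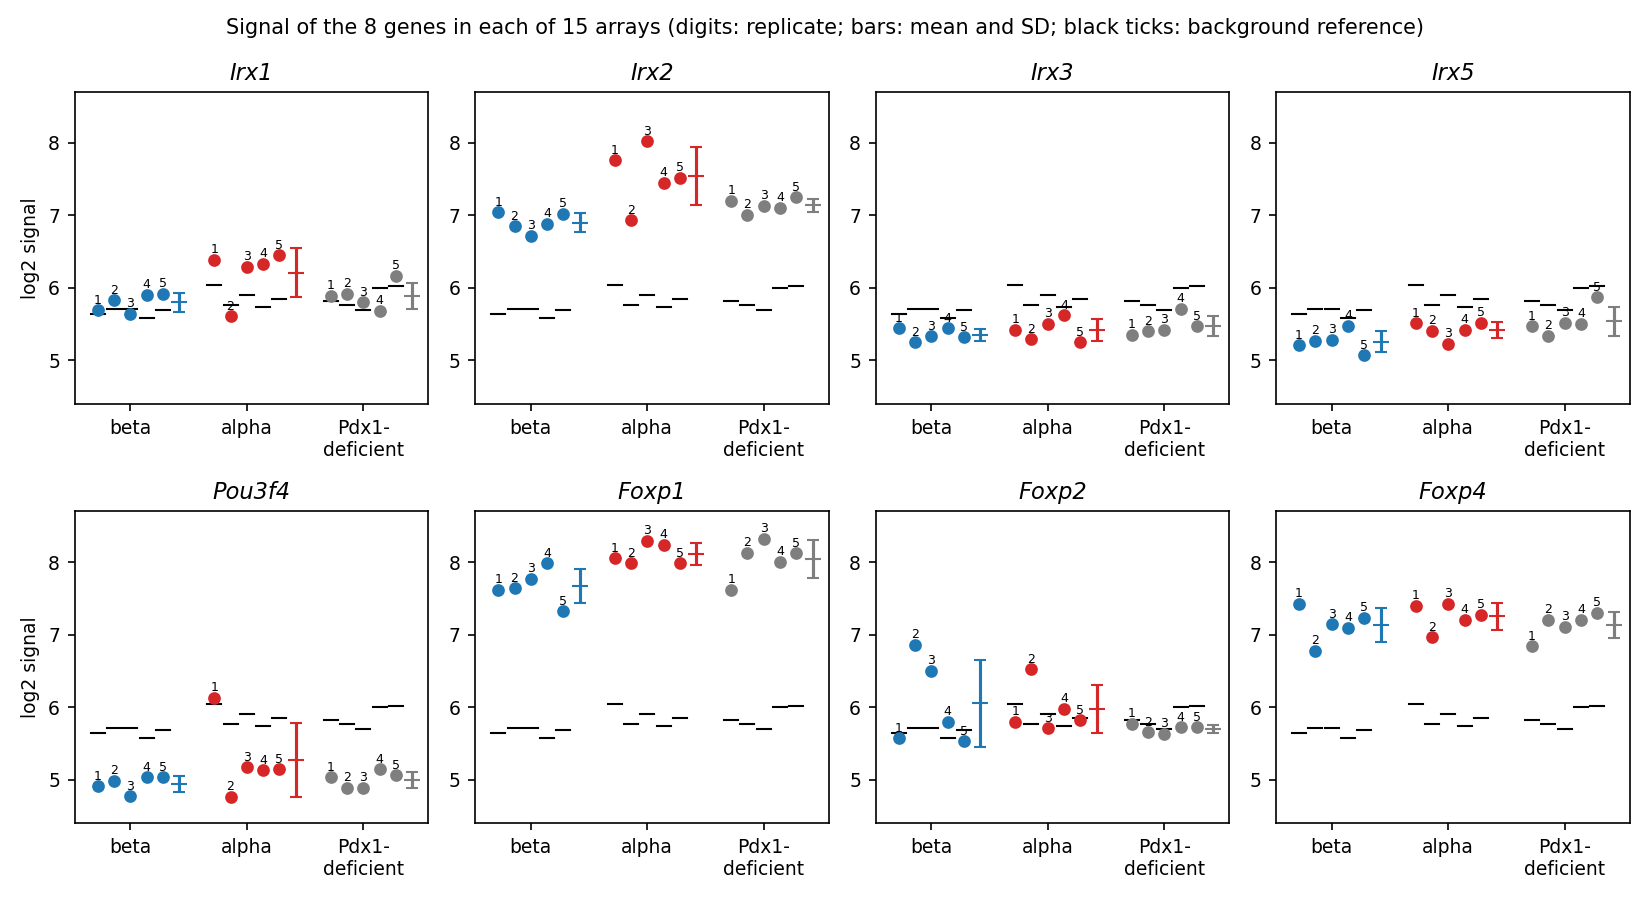
Log2 signal (vertical axis) of each of the 8 genes in the 5 beta, 5 alpha and 5 Pdx1-deficient arrays, with digits for replicates, bars for the mean and SD, and black ticks for each array's background reference (95th percentile of 1190 receptor genes). Irx2 in alpha arrays lies at 7.45 to 8.02 apart from replicate 2 at 6.93, Irx3 and Irx5 stay below the ticks in all arrays, and Foxp2 is high in beta replicates 2 and 3 and alpha replicate 2.

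Irx2 was the gene of the 8 that differed between alpha and beta arrays. It read 7.04, 6.85, 6.72, 6.88 and 7.02 in beta replicates 1 to 5 and 7.76, 6.93, 8.02, 7.45 and 7.52 in alpha replicates 1 to 5. The Pdx1-deficient arrays read 7.20, 7.01, 7.13, 7.10 and 7.25. In alpha, 4 arrays were above every beta array and the array labelled alpha replicate 2 lay inside the beta range. Means were 6.90 ± 0.13 (SD, n = 5) in beta, 7.54 ± 0.40 (SD, n = 5) in alpha and 7.14 ± 0.09 (SD, n = 5) in Pdx1-deficient arrays. The log2 difference between alpha and beta was 0.63 (SE 0.15, 95% interval 0.31 to 0.96, limma adjusted p = 0.0324), which is 1.55-fold if the log base is 2. In this comparison 0.893% of all genes tested passed the threshold of an adjusted p under 0.05 as higher, and 4.04% in either direction. Higher calls were 22.1% of all calls, and 10.4% with array medians or 8.34% with the background median subtracted, settings under which Irx2 still passed (limma adjusted p = 0.0367 and 0.0471).

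That call was close to the threshold. Its exact permutation p was 0.0238, where 0.00794 is the smallest that 5 against 5 arrays allow, and 0.143 after adjustment over the 24 tests made (8 genes in 3 comparisons). A single gene with the smallest possible p would adjust to 0.19, so 1 gene alone could not pass this adjusted test. The limma adjusted p was 0.00117 without alpha replicate 2, where the difference was 0.79 (SE 0.11). It rose above the threshold, to between 0.053 and 0.0763, when any of beta replicates 1 to 5 or alpha replicates 1, 3, 4 or 5 was left out, and to 0.0715 with only these 2 groups in the fit.

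Irx2 in Pdx1-deficient arrays lay between the control groups. There, 4 of the 5 arrays were above every beta array, and the difference from beta was 0.24 (SE 0.15, 95% interval -0.086 to 0.56, limma adjusted p = 0.352, exact permutation p = 0.0238). The difference from alpha was -0.40 (SE 0.15, limma adjusted p = 0.698), in a comparison in which 0.0% of all genes passed and 6.0% had an unadjusted p under 0.05. Without alpha replicate 2 it was -0.55 (limma adjusted p = 0.0436), with 0.727% of all genes called, and without that array and Pdx1-deficient replicate 1 together it was -0.56 (limma adjusted p = 0.0564, 0.888% of all genes called). The order of Irx2 levels was thus alpha, Pdx1-deficient, beta, and neither pair of neighbours passed the test with all arrays.

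Irx1, the neighbour of Irx2 on chromosome 13, had the same order of group means. It read 5.69, 5.83, 5.64, 5.90 and 5.92 in beta replicates 1 to 5, and 6.39, 5.61, 6.29, 6.33 and 6.45 in alpha replicates 1 to 5. The Pdx1-deficient arrays read 5.89, 5.92, 5.80, 5.68 and 6.17. Alpha replicate 2 was the lowest of all 15 arrays, and the other 4 alpha arrays were the highest. The alpha mean of 6.21 ± 0.34 (SD, n = 5) exceeded the beta mean of 5.80 ± 0.13 (SD, n = 5) by 0.42 (SE 0.14, limma adjusted p = 0.114, exact permutation p = 0.0476), which did not pass. Without alpha replicate 2 it passed, with a difference of 0.57 (SE 0.10, limma adjusted p = 0.00401), where 2.06% of all genes were called higher. Pdx1-deficient arrays (5.89 ± 0.18, SD, n = 5) differed from beta by 0.096 (limma adjusted p = 0.693) and from alpha by -0.32 (limma adjusted p = 0.802). The latter was -0.47 without alpha replicate 2 (limma adjusted p = 0.048) and did not pass without Pdx1-deficient replicate 1 as well (limma adjusted p = 0.076).

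Irx1 and Irx2 went together from array to array. Over the 15 arrays their Pearson correlation was 0.82, it was 0.82 without alpha replicate 2, and the correlation of their deviations from the group means was 0.68. These points share arrays, scaling and background. Irx4, the next coding gene after Irx2, read 5.12 to 5.82, below the background reference in all arrays, so whether it went with them cannot be read from these signals.

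The mean levels of some marker lists of other cells ran with Irx2, though not every gene in them did. The 9 stromal marker genes averaged 5.28 to 5.51 in beta arrays, 5.34 in alpha replicate 2, 5.69 to 6.10 in the other alpha arrays and 5.55 to 5.80 in Pdx1-deficient arrays, and this average correlated with Irx2 at 0.94 over the 15 arrays and with Irx1 at 0.79. For deviations from the group means these correlations were 0.94 and 0.71. Of the 9, Rgs5, a gene of pericytes, rose in alpha arrays by 1.07 (limma adjusted p = 0.0365), where 0.893% of all genes rose, and the other 8 did not pass. Sparc, which encodes a secreted matrix-associated protein, differed by 1.20 (limma adjusted p = 0.0791) and passed without alpha replicate 2 (1.60, limma adjusted p = 0.00173), as did Lum (0.28, limma adjusted p = 0.0481). Of the 9, 3 passed as higher without alpha replicate 2, where 2.06% of all genes did. Without Pdx1-deficient replicate 1 as well it was 2 of the 9, where 1.95% of all genes passed as higher. Among defining stromal markers Lum read 3.37 to 3.92, below the 25th percentile of all clusters in every array, and Pdgfra, Pdgfrb and Dcn were below the background reference in every array. Col1a1, Col1a2 and Col3a1 were above it in all arrays. Col1a1, Pdgfra and Pdgfrb had higher means in Pdx1-deficient arrays (6.89, 5.36 and 5.32) than in alpha arrays (6.76, 5.15 and 5.26). The Col1a2 mean was 6.5 in both groups. Col3a1, Dcn, Lum, Rgs5 and Sparc had the group order of Irx2. The alpha-cell product genes, 12 measured, averaged 7.59 to 8.09 in beta arrays, 8.39 in alpha replicate 2, 9.44 to 9.87 in the other alpha arrays and 8.10 to 8.77 in Pdx1-deficient arrays, and correlated with Irx2 at 0.84, or 0.56 for deviations from the group means. The 4 alpha markers, all of them among these 12 genes, correlated with Irx2 at 0.71 and at 0.12 for such deviations. Endothelial and leukocyte markers averaged 5.02 to 5.41 and 5.05 to 5.46 over all arrays. In limma 0 of 8 passed in either list, where 4.04% of all genes did between alpha and beta. At an unadjusted p under 0.05 there were 0 and 2 of 8 between alpha and beta, where 20.7% of all genes had such a p. The endothelial and leukocyte means correlated with Irx2 at 0.56 and 0.59, and at 0.47 and 0.56 for deviations from the group means. The 4 delta markers averaged 8.77 to 9.34 in beta, 8.90 to 9.81 in alpha and 8.36 to 9.18 in Pdx1-deficient arrays, with a correlation of 0.52 (0.34 for deviations). Of these 4, Rbp4, a retinol carrier gene, rose in alpha arrays by 1.04 (limma adjusted p = 0.0462), where 0.893% of all genes rose. The acinar mean, high in alpha replicate 5, correlated with Irx2 at 0.24. The part of stromal, endothelial, leukocyte and delta cells in the Irx1 and Irx2 values was not tested.

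**Figure D2:**
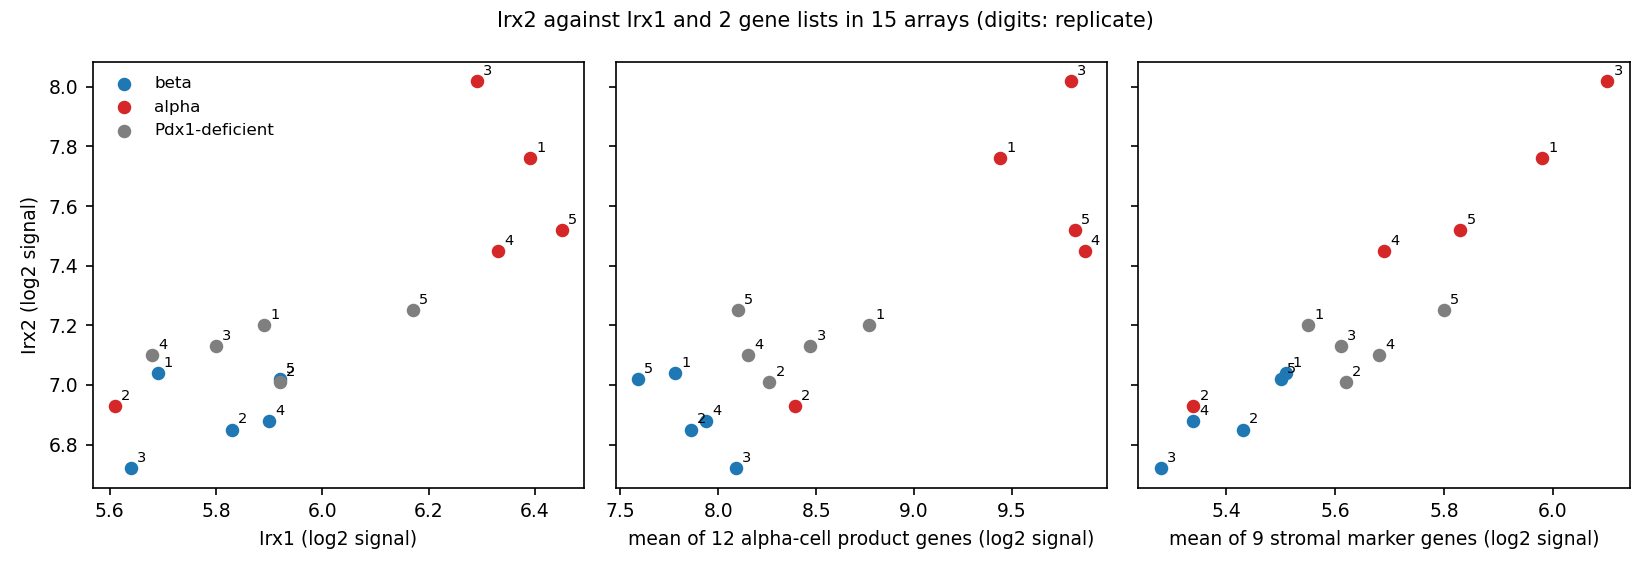
Log2 signal of Irx2 (vertical axis) against Irx1, the mean of the alpha-cell product genes and the mean of the stromal markers (horizontal axes, log2 signal), 1 point per array with its replicate number and a colour per group. Alpha replicate 2 lies with the beta arrays for Irx1 and the stromal mean, and the correlations over 15 arrays are 0.82, 0.84 and 0.94.

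Irx3 and Irx5, consecutive coding genes on chromosome 8, stayed near background. Irx3 read 5.25 to 5.44 in beta arrays (median 5.33), 5.25 to 5.62 in alpha arrays (median 5.42) and 5.35 to 5.71 in Pdx1-deficient arrays (median 5.42). The groups overlapped throughout. Its difference was 0.063 between alpha and beta (limma adjusted p = 0.714) and 0.12 between Pdx1-deficient and beta (limma adjusted p = 0.442), and both turned below 0 under some of the scalings tried.

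Irx5 read 5.21, 5.27, 5.28, 5.48 and 5.07 in beta replicates 1 to 5 and 5.47, 5.34, 5.52, 5.50 and 5.87 in Pdx1-deficient replicates 1 to 5. In Pdx1-deficient cells 3 arrays were above every beta array, replicate 5 most of all. The difference was 0.28 (SE 0.10, 95% interval 0.056 to 0.50, limma adjusted p = 0.156, exact permutation p = 0.0238), which did not pass. Alpha arrays (5.42 ± 0.11, SD, n = 5) lay between, at a difference of 0.16 from beta (limma adjusted p = 0.404). The background reference moved in the same direction: its 95th percentile was 6.0 and 6.02 in Pdx1-deficient replicates 4 and 5 against at most 5.71 in beta arrays. With each array's background median subtracted the Irx5 difference was 0.15 (limma adjusted p = 0.425). Irx6, the next gene along, read 5.27 to 6.12 and differed between Pdx1-deficient and beta arrays by 0.26 (limma adjusted p = 0.265), so none of this trio passed.

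Pou3f4 was below the background reference in 14 of 15 arrays. It read 4.91, 4.98, 4.77, 5.03 and 5.03 in beta replicates 1 to 5, 6.13, 4.76, 5.17, 5.13 and 5.14 in alpha replicates 1 to 5, and 4.89 to 5.14 in Pdx1-deficient arrays. Alpha replicate 1 alone was above its background reference of 6.04, and the lowest array of all was alpha replicate 2. The alpha mean of 5.27 ± 0.51 (SD, n = 5) differed from the beta mean of 4.94 ± 0.11 (SD, n = 5) by 0.32 (SE 0.18, limma adjusted p = 0.327, exact permutation p = 0.175). Without alpha replicate 2 it differed by 0.45 (limma adjusted p = 0.131), and without alpha replicate 1 by 0.11. Pdx1-deficient arrays differed from beta by 0.058 (limma adjusted p = 0.862). The genes named as most like it in profile were, by that choice, high in the same array. Tspyl5 read 7.22 in alpha replicate 1 and 6.04 to 6.48 elsewhere, and Nefl, a neurofilament gene, 5.95 against 4.07 to 4.55.

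Without alpha replicate 2 the alpha arrays of Irx1, Irx2 and Pou3f4 were all above every beta array, as were 6.15% of all genes. With all arrays none of the 8 genes had separate groups in any comparison, where the groups did not overlap for 6.34% of all genes between alpha and beta, 5.96% between Pdx1-deficient and beta and 0.637% between Pdx1-deficient and alpha.

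**Figure D3:**
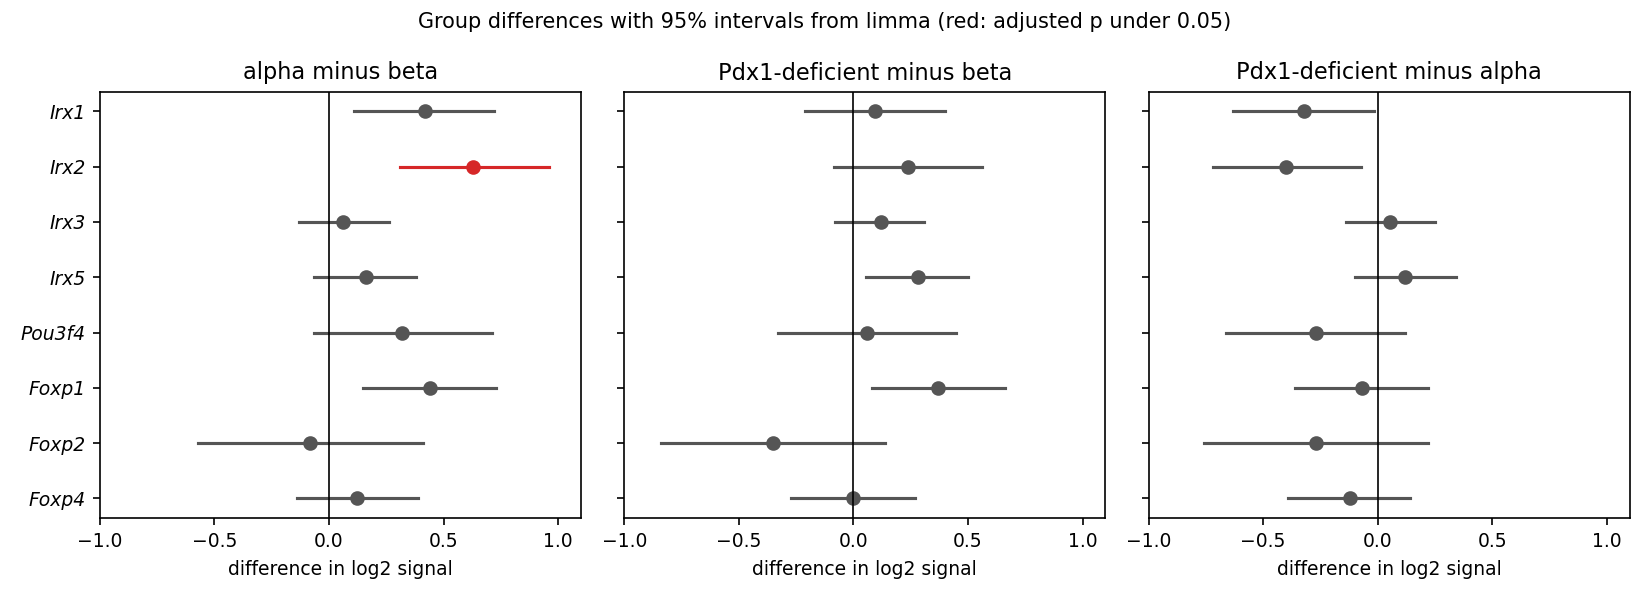
Differences in log2 signal (horizontal axis) of the 8 genes between Pdx1-deficient and beta, alpha and beta, and Pdx1-deficient and alpha arrays, with 95% intervals from limma; red marks an adjusted p under 0.05. The 1 red point is Irx2 between alpha and beta at 0.63, and the Foxp1 differences from beta are 0.44 in alpha and 0.37 in Pdx1-deficient arrays.

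Foxp1, of the forkhead repressors, had means in alpha and Pdx1-deficient arrays that were both above the beta mean, and neither difference passed. It read 7.62, 7.64, 7.77, 7.98 and 7.32 in beta replicates 1 to 5, 8.05, 7.98, 8.29, 8.24 and 7.98 in alpha replicates 1 to 5, and 7.62, 8.13, 8.32, 8.0 and 8.12 in Pdx1-deficient replicates 1 to 5. Beta replicate 4 reached the lowest alpha arrays, and Pdx1-deficient replicate 1, the array with beta-level Pdx1, read a beta-like value while the other 4 were above every beta array. The difference between alpha and beta was 0.44 (SE 0.14, 95% interval 0.15 to 0.73, limma adjusted p = 0.0811, exact permutation p = 0.0238). It passed when quantile normalized again (0.52, limma adjusted p = 0.0472) and without alpha replicate 2 and Pdx1-deficient replicate 1 (0.47, limma adjusted p = 0.0388, with 1.95% of all genes called higher). The difference between Pdx1-deficient and beta was 0.37 (SE 0.14, 95% interval 0.081 to 0.66, limma adjusted p = 0.15, exact permutation p = 0.0556). Without Pdx1-deficient replicate 1 it was 0.47 (limma adjusted p = 0.0573), still not past the threshold. Pdx1-deficient and alpha arrays differed by -0.07 (95% interval -0.36 to 0.22). This comparison shares the alpha and Pdx1-deficient arrays with the others, and both differences from beta share the beta arrays.

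Foxp1 ran against the beta-cell markers, with a correlation of -0.76 with their mean over 15 arrays and -0.45 for deviations from group means. The beta-marker mean, over 7 genes, was 9.61 to 9.94 in beta arrays, 8.14 to 8.79 in alpha arrays, 9.80 in Pdx1-deficient replicate 1 and 8.06 to 8.69 in the other 4. The genes whose profile was most like Foxp1 were Map3k15 (r = 0.93), the homeobox gene Prox1 (r = 0.90) and Dbpht2 (r = 0.88), each over 15 arrays. Prox1 read 7.77 to 8.78 in beta arrays, 8.88 to 9.49 in alpha arrays, 8.32 in Pdx1-deficient replicate 1 and 8.71 to 9.62 in the other 4. It was named for its likeness to Foxp1 over these arrays, so its low value in that replicate is not a separate observation.

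Foxp2 had its highest mean, and its widest spread, in beta arrays. It read 5.57, 6.86, 6.50, 5.80 and 5.53 in beta replicates 1 to 5, 5.80, 6.52, 5.71, 5.98 and 5.82 in alpha replicates 1 to 5, and 5.65 to 5.77 in Pdx1-deficient arrays. High values stood in beta replicates 2 and 3 and in alpha replicate 2, and the Pdx1-deficient arrays had an SD of 0.06 against 0.60 in beta. The difference between Pdx1-deficient and beta was -0.35 (SE 0.23, 95% interval -0.84 to 0.14, limma adjusted p = 0.359) and between alpha and beta -0.083 (limma adjusted p = 0.86). The first was -0.15 without beta replicate 2 and otherwise -0.48 to -0.24 with any 1 array left out. The second was 0.12 without beta replicate 2 and 0.031 without beta replicate 3. The genes most like Foxp2 over 15 arrays were Zfp74 (r = 0.83), the MADS-box gene Mef2c (r = 0.82) and Mir505 (r = 0.81).

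Foxp4 was above background in every array and had nearly the same level in each group. Its means were 7.13 ± 0.23 (SD, n = 5) in beta, 7.25 ± 0.19 (SD, n = 5) in alpha and 7.13 ± 0.18 (SD, n = 5) in Pdx1-deficient arrays. Alpha and beta differed by 0.12 (95% interval -0.14 to 0.39, limma adjusted p = 0.588), and Pdx1-deficient and beta by 0.00052 (95% interval -0.27 to 0.27). Beta arrays ranged from 6.78 in replicate 2 to 7.42 in replicate 1, alpha arrays from 6.96 to 7.42 and Pdx1-deficient arrays from 6.84 to 7.30. Foxp4 and Foxp2 ran opposite to each other, with a correlation of -0.62 over 15 arrays and -0.75 for deviations from group means: the array with the lowest Foxp4, beta replicate 2, had the highest Foxp2.

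Taking the 8 genes by count, between Pdx1-deficient and beta arrays 0 passed in limma and 2 had an unadjusted p under 0.05 (Irx5 and Foxp1). Of all genes 1.09% passed, and 21.8% had an unadjusted p under 0.05. Their median difference was 0.11, where all genes had 0.06, and 7 of 8 differences were above 0, as were 60.8% of all genes. Relative to the array medians 4 of 8 were above 0, relative to the background reference 3 of 8. Between alpha and beta arrays 1 passed in limma, where 4.04% of all genes did. An unadjusted p under 0.05 was found for 3 (Irx1, Irx2 and Foxp1), where 20.7% of all genes had one. The median difference was 0.24 against 0.04. Here 7 of 8 differences were above 0, where 58.2% of all genes were, and 6 of 8 under each of the 3 scalings. Between Pdx1-deficient and alpha arrays 0 passed in limma, where 0.0% of all genes did. An unadjusted p under 0.05 was found for 2 (Irx1 and Irx2), where 6.0% of all genes had one. The median there was -0.19 against 0.02, and 2 of 8 differences were above 0, where 57.7% of all genes were. The comparisons share groups of arrays, so these counts are not independent of each other.

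**Figure D4:**
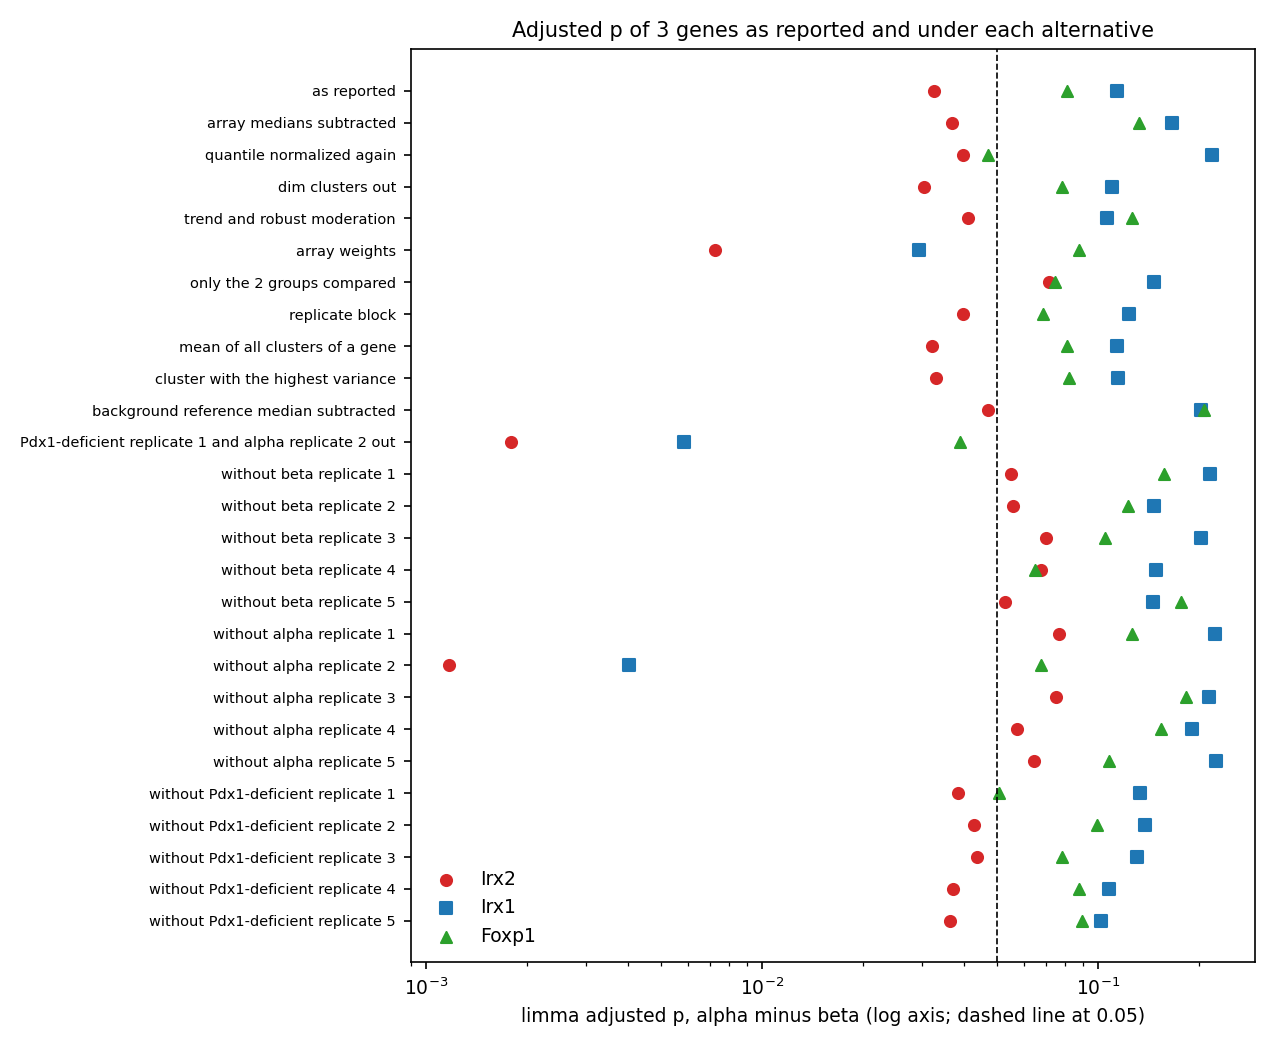
Limma adjusted p (horizontal log axis, dashed line at 0.05) of Irx2, Irx1 and Foxp1 between alpha and beta arrays, as reported and under each of 26 alternatives (rows). Irx2 was past the threshold in 16 of 26 alternatives with a range of 0.00117 to 0.0763, Irx1 in 3 and Foxp1 in 2.

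The 6 relatives that complete these subfamilies did not pass in any comparison in limma. Of all genes 1.09% passed between Pdx1-deficient and beta, 4.04% between alpha and beta and 0.0% between Pdx1-deficient and alpha. At an unadjusted p under 0.05 there was 1 relative between Pdx1-deficient and beta arrays, Foxp3, where 21.8% of all genes had such a p. There were 0 between alpha and beta (20.7% of all genes) and 0 between Pdx1-deficient and alpha (6.0%). Foxp3, known from regulatory T cells, differed by 0.27 between Pdx1-deficient and beta arrays (5.96 ± 0.12 in beta, 6.22 ± 0.13 in Pdx1-deficient, SD, n = 5; limma adjusted p = 0.159), and its 5 Pdx1-deficient arrays read 6.02 to 6.34 against 5.75 to 6.02 in beta. Pou3f1, a POU factor known from Schwann cells, was above background in all arrays and differed by 0.18 between alpha and beta (limma adjusted p = 0.345). Pou3f2 and Pou3f3, known from neurons, differed there by -0.02 and -0.16, and Irx6 by 0.15. The medians of the 6 were 0.11 for alpha minus beta and 0.16 for Pdx1-deficient minus beta, against 0.04 and 0.06 over all genes.

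Related regulators outside these families changed in a few cases. Of 9 other TALE homeobox genes 1 rose in alpha arrays, Mkx, which is a close relative of the Iroquois genes and known from tendon, by 0.73 (limma adjusted p = 0.0219), and 0 fell, where 0.893% of all genes rose and 3.15% fell. The Mkx mean was 5.06 in beta arrays, below the background reference (5.58 to 5.71). In alpha arrays it was 5.79, within the range of that reference (5.74 to 6.04), so its signals were near background. Without alpha replicate 2 Pbx3, another TALE gene, also fell by 1.32 (limma adjusted p = 0.0123), where 5.11% of all genes did. Of 9 other regulators of alpha cells 1 rose, the zinc-finger gene Gata6, by 1.04 from 7.10 ± 0.28 to 8.14 ± 0.49 (SD, n = 5; limma adjusted p = 0.0109), and in Pdx1-deficient arrays it differed from beta by 0.69 (limma adjusted p = 0.0867). That difference passed without alpha replicate 2 (limma adjusted p = 0.0337), and also without Pdx1-deficient replicate 1 in addition (limma adjusted p = 0.0313), where 0.582% of all genes were called higher. Of 9 regulators of beta cells 2 fell in alpha arrays, Pdx1 by 1.28 (limma adjusted p = 0.0473) and Nkx6-1, a homeobox gene of beta cells, by 1.07 (limma adjusted p = 0.0326). Between Pdx1-deficient and beta arrays 0 genes of these 3 lists passed in limma, with 1, 2 and 2 at an unadjusted p under 0.05, where 0.16% of all genes rose, 0.928% fell and 21.8% had such an unadjusted p. Pbx2 differed by -0.37, Nkx6-1 by -1.0 (limma adjusted p = 0.0676) and Pdx1 by -1.39 (limma adjusted p = 0.0575). Without Pdx1-deficient replicate 1 and alpha replicate 2, Nkx6-1 fell by 1.25 (limma adjusted p = 0.00951) and Pdx1 by 1.74 (limma adjusted p = 0.00721), where 2.56% of all genes fell.

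Among 14 corepressor genes whose proteins work with Foxp factors, 1 fell in alpha arrays, Gatad2a, a NuRD subunit gene, by 0.53 (limma adjusted p = 0.0378), against 3.15% of all genes. Without alpha replicate 2 Hdac1, a histone deacetylase gene, fell as well, by 0.42 (limma adjusted p = 0.0447), and without Pdx1-deficient replicate 1 in addition Gatad2a no longer passed (limma adjusted p = 0.0585). In Pdx1-deficient arrays 0 passed in limma, where 1.09% of all genes did, and 5 had an unadjusted p under 0.05, where 21.8% of all genes did; Ctbp1 differed by -0.46 (limma adjusted p = 0.144) and Gatad2a by -0.43 (limma adjusted p = 0.105). The list's median was -0.19 in alpha and -0.10 in Pdx1-deficient arrays against beta. Of 13 other forkhead genes 0 passed in limma, and at an unadjusted p under 0.05 there were 0 in alpha and 1 in Pdx1-deficient arrays against beta, below the 20.7% and 21.8% of all genes, with Foxn3 at 0.41 and Foxo1, a factor restrained by insulin signalling, at -0.30 in alpha arrays. Of 6 measured POU genes of other classes 0 passed in limma, with 0 and 2 at that unadjusted level (20.7% and 21.8% of all genes) and with Pou5f1 at 0.20 and Pou2f2 at 0.18.

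The products of the 2 cell types give a scale for these values. Of 12 alpha-cell product genes 7 rose in alpha arrays, where 0.893% of all genes did, with a median difference of 1.49, among them Ndst4 by 3.61, the imprinted gene Peg10 by 2.92, the kinase gene Wnk3 by 2.36 and Dpp10 by 2.27. The count was 9 without alpha replicate 2, where 2.06% of all genes rose, and 10 without Pdx1-deficient replicate 1 as well, where 1.95% did. In Pdx1-deficient arrays 1 of the 12 rose, Ndst4 by 2.05 (limma adjusted p = 0.0316), where 0.16% of all genes did, and the median was 0.37. Of 10 beta-cell product genes 4 fell in alpha arrays, where 3.15% of all genes fell, and 1 in Pdx1-deficient arrays, Ucn3, a peptide hormone gene of beta cells (-2.28, limma adjusted p = 0.0389), where 0.928% fell. Without Pdx1-deficient replicate 1 and alpha replicate 2 the counts were 5 and 4, the latter with Ucn3 (-2.79), the glucose transporter gene Slc2a2 (-2.44), the GLP-1 receptor gene Glp1r (-2.14) and G6pc2 (-1.53), where 2.56% of all genes fell. The alpha-cell lists include genes picked with earlier results of these arrays known, so their counts are a description.

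By profile over the 15 arrays, the genes most like Irx2 were Minar1 (r = 0.97), the dynein gene Dnah11 (r = 0.95) and Sparc (r = 0.95). Sparc read 7.65, 5.63, 8.38, 7.42 and 7.02 in alpha replicates 1 to 5 and 5.48 to 6.36 in beta arrays, and so shared with Irx2 both its highest array, alpha replicate 3, and a beta-like value in alpha replicate 2. Sparc is also 1 of the 9 stromal markers, and its range of 5.48 to 8.38 was the widest of them. Its likeness to Irx2 is therefore not separate from that of the stromal mean. The genes most like Irx1 were Cdca7l (r = 0.90), Epb41l2, a membrane skeleton gene (r = 0.87), and Amotl1 (r = 0.86). Epb41l2 read 7.21 to 8.14 in the 4 other alpha arrays, 5.76 in alpha replicate 2 and 5.70 to 6.04 in beta arrays. For Irx3 they were Cyp2d22 (r = 0.91), Mta2 (r = 0.88) and Fbxw9 (r = 0.86), for Irx5 Mir455 (r = 0.91), Fam227a (r = 0.91) and Ccl8 (r = 0.86), for Pou3f4 Tspyl5 (r = 0.96), Nefl (r = 0.95) and Ppbp (r = 0.95), and for Foxp4 Cavin1 (r = 0.86), Ints1 (r = 0.85) and Ehmt2 (r = 0.84). Each is the highest of 19938 genes by choice, and all share arrays and scaling, so the values describe likeness in these arrays and carry no test.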

How the data were processed

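The authors deposited 1 log2 value per transcript cluster and array, made with Affymetrix Expression Console per the submitters' processing notes; the sources used here do not give its version, how probes were summarized and background-corrected, or the build. The table held 35556 clusters with values from 2.11 to 13.45, a range that fits a log2 scale, and folds assume that base. The platform annotation gave 21789 clusters 1 gene symbol, 1621 several and 12146 none; only the first were named. Gene IDs of 21698 matched the reference gene table. Each of 19938 genes was represented by its brightest single-symbol cluster.

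Groups came from the sample titles. Differences were tested with limma 3.58.1 in R 4.3.3 (3 group means over 15 arrays, lmFit and eBayes, Benjamini-Hochberg over all genes, threshold 0.05), a procedure tested on simulated data first, and with two-sided exact permutation tests over 252 splits of 10 arrays, adjusted over 24 tests. Precision is limited by having 5 arrays in each group.

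The 8 genes and all lists were chosen with earlier results of these data known. Named were the 8 genes, their 6 relatives, from every other list up to 4 genes past the threshold or up to 2 with the largest difference where none passed, the 3 genes most like each of the 8 in Pearson correlation, and Pdx1, Gcg and Ins2 as checks; genes named to show array values of markers were chosen after their values were seen. Alternatives were 3 scalings (subtracting the background reference median was chosen after seeing the data), a filter on dim clusters, other moderation, array weights, 2-group fits, a replicate block, 2 other ways to represent a gene, leaving out each array, and leaving out Pdx1-deficient replicate 1 and alpha replicate 2 together (the doubted arrays).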

Additional observations from a re-analysis of the deposited data

Results flagged for a closer look

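Irx1 in the array labelled alpha replicate 2 read 5.61, while the other 4 alpha arrays read 6.29 to 6.45. Its gap to the nearest of these was 0.805 of the group's range, more than Dixon's 95% critical value allows for 5 samples. Of 24 groups examined (8 genes in 3 groups of arrays) this was the 1 that stood out, where chance gives about 1 in 20.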

How the results depend on the processing

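Across 624 comparisons of the 8 genes' differences with alternatives, 584 kept their direction and their side of the threshold, 23 turned sign, 10 lost a call and 7 gained one. The 10 were all Irx2 between alpha and beta. No difference that turned sign was called. With array medians subtracted the Pdx1-deficient minus beta difference was -0.0027 for Irx1, -0.041 for Pou3f4 and -0.098 for Foxp4, and alpha minus beta was -0.023 for Irx3. Quantile normalized again these were -0.016 for Irx1, -0.014 for Irx3 and -0.08 for Pou3f4, and -0.05 for Irx3 in alpha minus beta. With the background reference median subtracted they were -0.036 for Irx1, -0.017 for Irx3, -0.075 for Pou3f4 and -0.13 for Foxp4, and -0.049 for Irx3 in alpha minus beta. These scalings moved the median of all genes by -0.10, -0.07 and -0.13 (Pdx1-deficient minus beta) and by -0.09, -0.07 and -0.11 (alpha minus beta). Of the called genes, 22.1% were higher in alpha than beta arrays as reported, 10.4% with array medians and 8.34% with the background median subtracted; for Pdx1-deficient minus beta it was 14.7%, 4.23% and 3.55%. Leaving out 1 array, the ranges were -0.087 to 0.073 for Foxp4 in Pdx1-deficient minus beta, -0.22 to 0.12 for Foxp2 in alpha minus beta, and, in Pdx1-deficient minus alpha, -0.0085 to 0.10 for Irx3 and -0.14 to 0.033 for Foxp1, which was 0.0014 without both doubted arrays (Pdx1-deficient replicate 1 and alpha replicate 2).

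Of the 8 genes, 1 was called between alpha and beta, where 806 of all 19938 genes were. The number was 2 when quantile normalized again (578 of all genes) and 2 with array weights (1316 of all genes). With only the 2 groups compared it was 0 (717 of all genes), and without both doubted arrays 3 (1425 of all genes). Leaving out 1 array it was 0 to 2 (328 to 1430 of all genes), with 2 without alpha replicate 2 (1430 of all genes). Between Pdx1-deficient and alpha arrays 0 to 2 of the 8 were called leaving out 1 array, where 0 to 145 of all genes were. Over all genes 217 were called between Pdx1-deficient and beta: 615 with array medians subtracted, 29 quantile normalized again, 121 with trend and robust moderation, 89 with only the 2 groups, 564 with the background median subtracted, 626 without both doubted arrays and 0 to 548 leaving out 1 array. Between alpha and beta 806 were called: 1316 with array weights, 1425 without both doubted arrays and 328 to 1430 leaving out 1 array. Between Pdx1-deficient and alpha 0 were called: 1 with trend and robust moderation, 1 with array weights, 177 without both doubted arrays and 0 to 145 leaving out 1 array. The cause of these shifts was not tested. All 8 genes, not 3, were above background in all arrays when the 25th percentile of all clusters was the reference.

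The replicate numbers are not said to pair arrays, and same-numbered arrays correlated at -0.172 to 0.224; the best match had the same number in 7 of 30 cases. With the replicate block 8 genes were called between Pdx1-deficient and beta and 633 between alpha and beta, with Irx2 at a limma adjusted p of 0.0395.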
